A study of Mus musculus with 7 samples.

Results

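Endothelial cells line the blood vessels of the brain, and pericytes wrap the capillaries from outside; both were followed here through 33 of their genes in RNA from whole mouse cerebellum. The 33 genes were a given set of symbols, matched to the gene names of the files, and all 33 were found among the 55450 genes listed. There were 25 endothelial and 8 mural members, mural meaning pericytes and the smooth muscle cells related to them. They were listed by the cell type in which they are known to be expressed and not by a measured value. Earlier results of these data were known when they were chosen. The cerebella came from C57BL/6 pups at postnatal day 15 and formed 2 groups, 4 libraries from mice that carry a knockout allele of L3mbtl3 over a wild-type allele (L3mbtl3 KO/+) and 3 libraries from wild-type mice (WT). L3mbtl3 encodes a chromatin protein with MBT domains that bind methylated lysines. The labels give neither the deleted part of the gene, nor the sex or litter of the pups, nor whether a library is 1 animal, and KO/+ is written with no promoter or cell type that would limit the deletion to vessels. All groups share the strain, age and tissue.

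In the brain, endothelial cells form the blood-brain barrier: tight junctions seal the gaps between them, transporters carry nutrients in and drugs out, and few vesicles cross the cell. Vessel growth is driven by VEGF acting on endothelial receptor kinases, stability by the angiopoietin receptors, and the barrier by Wnt and Norrin signals from neurons and glia. Pericytes are recruited through the PDGF receptor beta and help to keep the barrier closed; in the cerebellum, vessels still grow into the cortex during the postnatal weeks.

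Polyadenylated RNA was sequenced, and the libraries held 35171613, 39660473, 33260005 and 29248342 expected counts in KO/+ replicates 1 to 4, against 37803037, 36269813 and 43761782 in WT replicates 1 to 3. Expected counts are estimated reads per gene. Levels are given below as TPM, which corrects for transcript length and sets every library to the same total, and differences between libraries as CPM, counts set to the same total with scaling factors. The knocked-out gene, L3mbtl3, averaged 20.6 ± 2.55 CPM in KO/+ libraries and 24.2 ± 2.25 CPM in WT libraries (SD, n = 4 and 3), a log2 fold change of -0.23 ± 0.12 (SE) with overlapping libraries, adjusted p = 0.957. As a description of the tissue, the 8 genes listed for granule neurons summed to 3612 to 5104 CPM in KO/+ and 3224 to 4103 CPM in WT libraries. No other tissue was set beside these sums, so they do not test the tissue label. KO/+ replicate 1 stood apart for many of the vascular genes, as described below, so fold changes that rest on it are also given without it. Across the cerebellum, 0 of 16813 genes tested (0%) passed an adjusted p of 0.05 in edgeR's quasi-likelihood test, and 530 (3.15%) had an unadjusted p under 0.05.

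Vascular transcripts were present in every library, and all 33 genes passed the filter on low counts, with 51 to 7837 expected counts per gene and library. Levels per length spanned a mean of 2.91 TPM for Robo4 to 105 TPM for Cldn5. The most abundant were Cldn5, which encodes claudin-5, the main tight-junction protein of brain endothelium; Vtn, the matrix protein vitronectin made by pericytes; Ly6c1, a surface antigen of mouse endothelium; Itm2a, a membrane protein abundant in brain endothelium; and Rgs5, a regulator of G-protein signalling and a widely used pericyte marker. The barrier transporters Slco1c1, Slc2a1 and Slco1a4 had means of 29.9, 29.4 and 25.8 TPM, and the 7 genes grouped as receptors lay lower, between 2.91 TPM for Robo4 and 11.9 TPM for Eng. The 25 endothelial genes together summed to 474, 573, 646 and 487 TPM in KO/+ replicates 1 to 4, against 452, 535 and 595 TPM in WT replicates 1 to 3. The 8 mural genes summed to 166, 214, 227 and 194 TPM in the KO/+ libraries, against 175, 188 and 196 TPM in the WT libraries. For both sums the genotypes overlapped, and KO/+ replicate 3 was the highest of all 7 libraries. In bulk RNA, fewer cells of a type and less RNA per cell cannot be told apart.

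**Figure D1:**
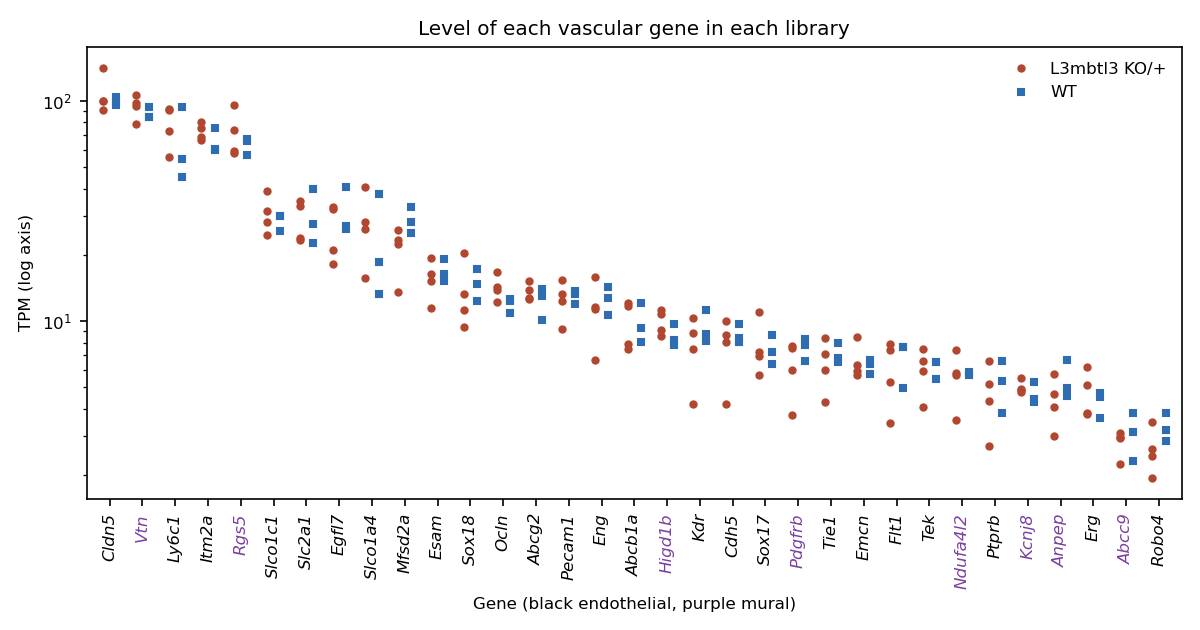
Level of each of the 33 vascular genes in each library (TPM, log axis), ordered by mean, with L3mbtl3 KO/+ libraries as circles left of WT libraries as squares; endothelial names are in black and mural names in purple. Cldn5 has the highest mean at 105 TPM and Robo4 the lowest at 2.91 TPM, and the genotypes overlap in TPM for Mfsd2a, the single gene in which they do not overlap by CPM.

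Promoter sequence was looked up for the members because ETS and SOX factors, among them the members Erg, Sox17 and Sox18, are known to act on endothelial genes. RefSeq promoters (GRCm38.p6) were found for 24 of the 33 genes, 19 endothelial and 5 mural, and the 250 bases before each start were searched on both strands. These starts lay at most 65 bases from the start of the most abundant transcript of the gene, except 212 bases for Tie1 and 92986 bases for Abcb1a, and the promoters of those 2 genes held no match. Of the promoters shown, Mfsd2a is the single member whose genotypes did not overlap by CPM, Robo4 and Emcn are endothelial genes with ETS letters, and Kcnj8 is a mural gene with SOX letters. Capitals mark matches to CCGGAAG or CAGGAAG (ETS), AACAAT or CACAAT (SOX) or AACAGGAA (a FOX:ETS motif) on either strand. The positions are chr4:122961189-122961438 on the minus strand for Mfsd2a, chr9:37401722-37401971 on the plus strand for Robo4, chr3:137340828-137341077 on the plus strand for Emcn and chr6:142571615-142571864 on the minus strand for Kcnj8.
Mfsd2a: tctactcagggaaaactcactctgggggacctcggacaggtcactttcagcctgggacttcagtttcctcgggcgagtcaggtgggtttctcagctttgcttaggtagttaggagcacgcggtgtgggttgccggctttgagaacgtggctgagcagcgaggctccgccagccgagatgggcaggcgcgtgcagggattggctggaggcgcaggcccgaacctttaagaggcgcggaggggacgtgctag
Robo4: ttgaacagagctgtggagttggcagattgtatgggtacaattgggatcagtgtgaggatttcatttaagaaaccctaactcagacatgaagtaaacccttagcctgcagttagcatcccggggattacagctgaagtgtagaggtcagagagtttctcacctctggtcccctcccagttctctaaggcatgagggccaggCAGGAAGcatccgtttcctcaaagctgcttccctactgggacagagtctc
Emcn: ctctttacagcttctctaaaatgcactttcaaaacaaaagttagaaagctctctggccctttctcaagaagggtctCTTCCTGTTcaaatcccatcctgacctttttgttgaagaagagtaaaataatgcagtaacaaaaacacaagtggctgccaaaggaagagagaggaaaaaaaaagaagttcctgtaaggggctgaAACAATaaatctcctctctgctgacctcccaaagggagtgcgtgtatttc
Kcnj8: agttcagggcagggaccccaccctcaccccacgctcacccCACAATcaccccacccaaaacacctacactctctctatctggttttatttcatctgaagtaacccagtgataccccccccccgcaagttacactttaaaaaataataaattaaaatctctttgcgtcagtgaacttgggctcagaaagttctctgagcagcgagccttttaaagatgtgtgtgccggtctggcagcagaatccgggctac
ETS letters stood in 6 of 19 endothelial promoters (31.6%) and in 0 of 5 mural promoters, beside 17% of the 32851 promoters in the table. SOX letters stood in 4 of 19 endothelial promoters (21.1%) and 2 of 5 mural promoters, beside 17.8% of all. The FOX:ETS letters, which overlap an ETS match, were found in 1 of 19 endothelial promoters, that of Emcn, beside 2.25% of all. In Emcn the overlapping match begins 174 bases before the start and the SOX match 50 bases before it, and in Robo4 the ETS match begins 50 bases before the start. A match is a description of these letters and not a binding site.

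The first question was whether the genotypes differed in any vascular gene. None of the 33 genes passed an adjusted p of 0.05 in edgeR's quasi-likelihood test, with adjusted p-values of 0.957 to 0.998, against 0% of all genes; DESeq2 and limma also gave 0 of 33. At an unadjusted p under 0.05 there were 2 of 33, beside 3.15% of all genes: Ocln was higher in KO/+, as were 1.25% of all genes, and Mfsd2a lower, as were 1.9%. Fold changes were split evenly, with 16 genes positive and 17 negative (48.8% of all genes were positive), and the median log2 fold change of KO/+ over WT was -0.0039 for endothelial and 0.054 for mural genes, beside -0.0047 for all genes tested. The 95% intervals of single genes reached from -0.82 to 1.22 on the log2 scale, so the data bound most differences but do not show that the levels were equal. Without KO/+ replicate 1, 28 of 33 genes were positive (48.6% of all genes), the endothelial median was 0.10 and the mural median 0.11, and 0 genes passed.

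**Figure D2:**
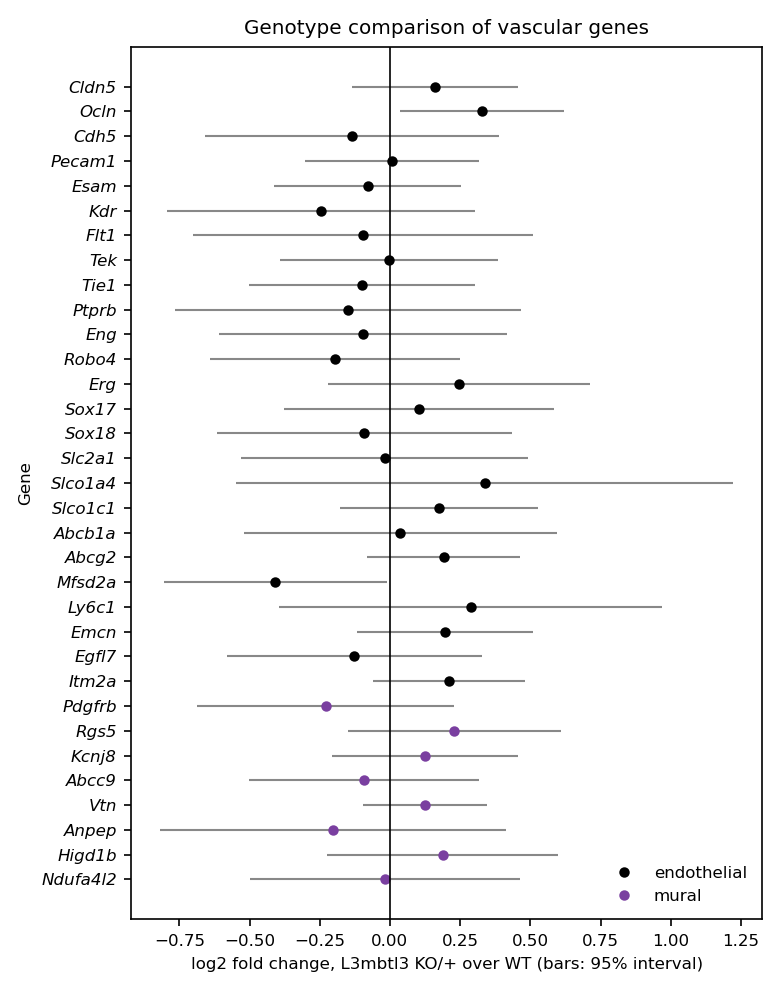
log2 fold change of each vascular gene, L3mbtl3 KO/+ over WT, from edgeR with 95% intervals, in black for endothelial and purple for mural genes. The interval of Ocln lies above 0 and that of Mfsd2a below 0 before adjustment, and the other 31 include 0.

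Mfsd2a and Ocln carried the smallest p-values. Mfsd2a encodes the transporter that brings lysophosphatidylcholine with docosahexaenoic acid into the brain and holds down vesicle traffic across the endothelium. The gene lies on the minus strand at chr4:122946850-122961188 (GRCm38). It was at 15.3, 23.1, 24.7 and 23.0 CPM in KO/+ replicates 1 to 4, against 25.3, 27.0 and 33.5 CPM in WT replicates 1 to 3. Every KO/+ library lay below every WT library, with a gap between 24.7 and 25.3 CPM; it was the single member with this pattern in CPM, beside 1.8% of all genes with KO/+ below WT and 3.96% whose genotypes did not overlap in either direction. Its log2 fold change was -0.41 ± 0.17 (SE), with an unadjusted p of 0.0451 and an adjusted p of 0.957, and it was -0.28 without KO/+ replicate 1. In TPM it averaged 21.4 ± 5.41 in KO/+ and 28.8 ± 3.89 in WT libraries (SD, n = 4 and 3), and the genotypes overlapped, with KO/+ replicate 3 at 26.1 TPM above WT replicate 1 at 25.2 TPM. The promoter printed above for this gene held no match.

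Ocln encodes occludin, a tight-junction protein that epithelial cells such as those of the choroid plexus also make. It was at 27.8, 30.0, 23.9 and 21 CPM in KO/+ libraries, against 19.6, 20.5 and 21.3 CPM in WT libraries. KO/+ replicates 1 and 2 were the highest, and KO/+ replicate 4 lay within the WT range. The log2 fold change was 0.33 ± 0.13 (SE), with an unadjusted p of 0.0322 and an adjusted p of 0.957. The 12 choroid plexus genes listed summed to 2108, 1742, 1314 and 194 CPM in KO/+ replicates 1 to 4, against 249.5, 1582 and 396 CPM in WT replicates 1 to 3, with 11 of the 12 fold changes positive, a median of 0.78 and 0 past the adjusted p. The smallest p was that of Kcnj13, a choroid plexus channel, at 4.59 ± 2.60 CPM in KO/+ and 2.23 ± 2.15 CPM in WT libraries (SD, n = 4 and 3). Ttr, transthyretin, was at 1349, 948, 653 and 3.45 CPM in KO/+ replicates 1 to 4, against 1.52, 938 and 11.7 CPM in WT replicates 1 to 3. The part of choroid plexus cells in the Ocln values was not tested.

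Among the other junction and adhesion genes, Cldn5 was at 69.5, 75.3, 97.8 and 68.2 CPM in KO/+ libraries, against 67.0, 71.5 and 69.9 CPM in WT libraries. A single library, KO/+ replicate 3, was high and the rest lay within a narrow range, giving a log2 fold change of 0.16 ± 0.13 (SE), adjusted p = 0.957, which was 0.020 without that library. Cdh5, VE-cadherin of the adherens junction, was at 11.0 CPM in KO/+ replicate 1 and at 19.4 to 23.6 CPM in the other 6 libraries, with a log2 fold change of -0.14, and 0.052 without that library. Pecam1 and Esam, adhesion molecules of the endothelial contact, had log2 fold changes of 0.0078 and -0.08, which were 0.10 and 0.0051 without it. Cdh5, Pecam1 and Esam were each lowest in KO/+ replicate 1.

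The receptors shared their lowest library. All 7 were lowest in KO/+ replicate 1, beside 16.7% of all genes, and 4 of the 7 were highest in KO/+ replicate 3, beside 8.98% of all genes. Their mean log2 CPM was 3.69, 4.4, 4.62 and 4.22 in KO/+ replicates 1 to 4, against 4.17, 4.52 and 4.47 in WT replicates 1 to 3. All 7 fold changes were negative, from -0.24 to -0.0039 on the log2 scale with a median of -0.10, and 0 passed the adjusted p; Tek turned to 0.011 with upper-quartile scaling factors. Without KO/+ replicate 1, 5 of the 7 were positive, so the direction of the group rests on that library.

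Kdr, the main signalling receptor for VEGF, was at 17, 29.4, 37.1 and 31.9 CPM in KO/+ libraries, against 30.1, 40.4 and 32.0 CPM in WT libraries. Its log2 fold change was -0.24 ± 0.24 (SE), adjusted p = 0.957, and it was -0.058 without KO/+ replicate 1, the library at 17 CPM, and -0.40 without KO/+ replicate 3. Flt1, which binds VEGF tightly and limits its action on Kdr, was at 15.7, 32.8, 31.8 and 21.5 CPM in KO/+ libraries, against 20.9, 28.8 and 31.9 CPM in WT libraries. The pair differed in which libraries were next lowest: Flt1 was at 21.5 and 20.9 CPM in KO/+ replicate 4 and WT replicate 1, where Kdr was at 31.9 and 30.1 CPM. Per length, the ratio of Kdr to Flt1 TPM was 1.22, 1.00, 1.31 and 1.67 in KO/+ libraries, against 1.63, 1.47 and 1.13 in WT libraries, means of 1.3 ± 0.28 and 1.41 ± 0.25 (SD, n = 4 and 3). The ratio was thus highest in 1 library of each genotype and overlapped between genotypes.

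Tek, the angiopoietin receptor, was at 12.4, 19.2, 19.9 and 15.7 CPM in KO/+ libraries, against 14.9, 17.7 and 18.0 CPM in WT libraries. Tie1, its related partner, was at 11.6, 15.7, 20.2 and 17.1 CPM in KO/+ libraries, against 16.9, 19.1 and 16.0 CPM in WT libraries. Both were lowest in KO/+ replicate 1, at close to the same level, and their log2 fold changes were -0.0039 and -0.10, which were 0.12 and 0.031 without it. The ratio of Tek to Tie1 TPM averaged 0.943 ± 0.113 in KO/+ and 0.875 ± 0.107 in WT libraries (SD, n = 4 and 3) and ranged from 0.806 to 1.1 over the 7 libraries. Ptprb, the phosphatase that acts on Tek, had a log2 fold change of -0.15 (0.020 without KO/+ replicate 1), with 22.0 to 45.8 CPM in KO/+ and 28.4 to 48.9 CPM in WT libraries.

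Eng, endoglin, a co-receptor for ligands of the TGF-beta family and the receptor gene with the highest TPM here, was at 14.6, 24.3, 31.2 and 23.0 CPM in KO/+ libraries, against 21.6, 27.6 and 25.6 CPM in WT libraries. Robo4, an endothelial roundabout receptor that steadies vessels, was at 4.54, 6.05, 7.95 and 5.92 CPM in KO/+ libraries, against 6.20, 7.77 and 7.04 CPM in WT libraries. Both had their lowest and their highest library within the KO/+ group. Their log2 fold changes were -0.10 ± 0.22 and -0.20 ± 0.19 (SE), adjusted p = 0.967 for Eng and 0.957 for Robo4. They were 0.072 for Eng and -0.076 for Robo4 without KO/+ replicate 1, and -0.28 and -0.36 without KO/+ replicate 3.

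The 3 transcription factors were all highest in KO/+ replicate 3. Sox18, a SOX factor of endothelial cells, was at 8.57, 10.0, 16.7 and 10.8 CPM in KO/+ libraries, against 12.3, 14.1 and 10.4 CPM in WT libraries. Erg, an ETS factor that maintains endothelial identity, was at 5.59, 7.44, 8.27 and 5.28 CPM in KO/+ libraries, against 4.59, 6.42 and 5.80 CPM in WT libraries. The genotypes overlapped for both, with log2 fold changes of -0.09 ± 0.23 for Sox18 and 0.25 ± 0.20 for Erg (SE), adjusted p = 0.969 and 0.957. Sox17, of the same SOX family, had a log2 fold change of 0.10. Without KO/+ replicate 3 the values were -0.34 for Sox18, 0.11 for Erg and -0.083 for Sox17, and Sox18 was at 0.028 without KO/+ replicate 1.

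The transporters followed another order of libraries than the receptors. Slco1a4, an organic anion transporter of the barrier, was at 40.8, 56.6, 37.0 and 20.7 CPM in KO/+ libraries, against 19.3, 24.2 and 48.5 CPM in WT libraries, and its highest library was 2.93 times its lowest, the widest range of any member. Slco1c1, which carries thyroid hormone, was at 56.8, 63.1, 71.1 and 43.6 CPM in KO/+ libraries, against 47.7, 53.4 and 55.0 CPM in WT libraries. Slc2a1, the glucose transporter GLUT1, ranged from 42.6 to 69.8 CPM in KO/+ and from 43.2 to 75.1 CPM in WT libraries. The mean log2 CPM of the 6 transporters was 4.87, 5.29, 5.16 and 4.63 in KO/+ replicates 1 to 4, against 4.69, 4.84 and 5.29 in WT replicates 1 to 3, so that KO/+ replicate 4 and WT replicate 1 were the lowest and KO/+ replicate 2 and WT replicate 3 the highest. The efflux pumps Abcb1a, P-glycoprotein, and Abcg2, the breast cancer resistance protein, had log2 fold changes of 0.04 and 0.19. In Abcb1a, 17% of 50-base windows are shared with Abcb1b or Abcb4, so its counts are less certain.

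Ly6c1, among the surface and secreted genes, was at 27.5, 27.5, 20.3 and 14.1 CPM in KO/+ libraries, against 13.3, 15.2 and 26.5 CPM in WT libraries. The order was close to that of Slco1a4, with KO/+ replicate 4 and WT replicates 1 and 2 low; its log2 fold change was 0.29 ± 0.30 (SE), adjusted p = 0.957. Leaving out WT replicate 1 gave 0.094, and leaving out WT replicate 3 gave 0.65. Of Ly6c1, 36.7% of the 50-base windows are shared with Ly6c2 or Ly6a. Itm2a was at 68.7, 74.4, 72.6 and 59.2 CPM in KO/+ libraries, against 55.1, 53.9 and 69.3 CPM in WT libraries, a log2 fold change of 0.21 ± 0.12 (SE), adjusted p = 0.957, and between 0.14 and 0.33 with single WT libraries left out. Emcn, the sialoglycoprotein endomucin, and Egfl7, a secreted endothelial protein, had log2 fold changes of 0.20 and -0.13, and Egfl7 was at 0.0038 without KO/+ replicate 1. Egfl7 overlaps Agpat2 and others and hosts Mir126a, and its counts may hold reads of these.

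Genes of dividing cells and of glia also differed between libraries. Mki67, a gene of dividing cells, was at 63.5, 61.4, 152 and 180.0 CPM in KO/+ replicates 1 to 4, against 194, 209 and 63.6 CPM in WT replicates 1 to 3, and the 15 cell cycle genes listed had a median log2 fold change of -0.29, 15 of 15 negative and 0 past the adjusted p; their smallest p was that of Bub1b, at 19.7 ± 7.60 CPM in KO/+ and 28.6 ± 12.5 CPM in WT libraries (SD, n = 4 and 3). S100b, a gene of Bergmann glia and other astrocytes, was at 330.5, 385, 234 and 169.7 CPM in KO/+ libraries, against 187, 171 and 299.98 CPM in WT libraries. The 10 genes listed for these glia summed to 4409.9 to 5409.6 CPM in KO/+ and 4219 to 5351 CPM in WT libraries (mean log2 CPM of 8.35 to 8.57 over the 7 libraries), with 7 of 10 positive, a median of 0.08 and the smallest p for Hopx, at 150.4 ± 9.74 CPM in KO/+ and 133 ± 5.02 CPM in WT libraries. The libraries with the least Mki67, KO/+ replicates 1 and 2 and WT replicate 3, were the 3 with the most Slco1a4 and Ly6c1. They were also the 3 with the most Kcnj8, a mural gene. No share of all genes stands beside this match, so it is not read as a vascular trait. The 6 transporters together did not follow this order: KO/+ replicate 3, at 152 CPM of Mki67, had a mean log2 CPM of 5.16, above the 4.87 of KO/+ replicate 1, at 63.5 CPM of Mki67. The part of these cells in the vascular values was not tested.

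**Figure D3:**
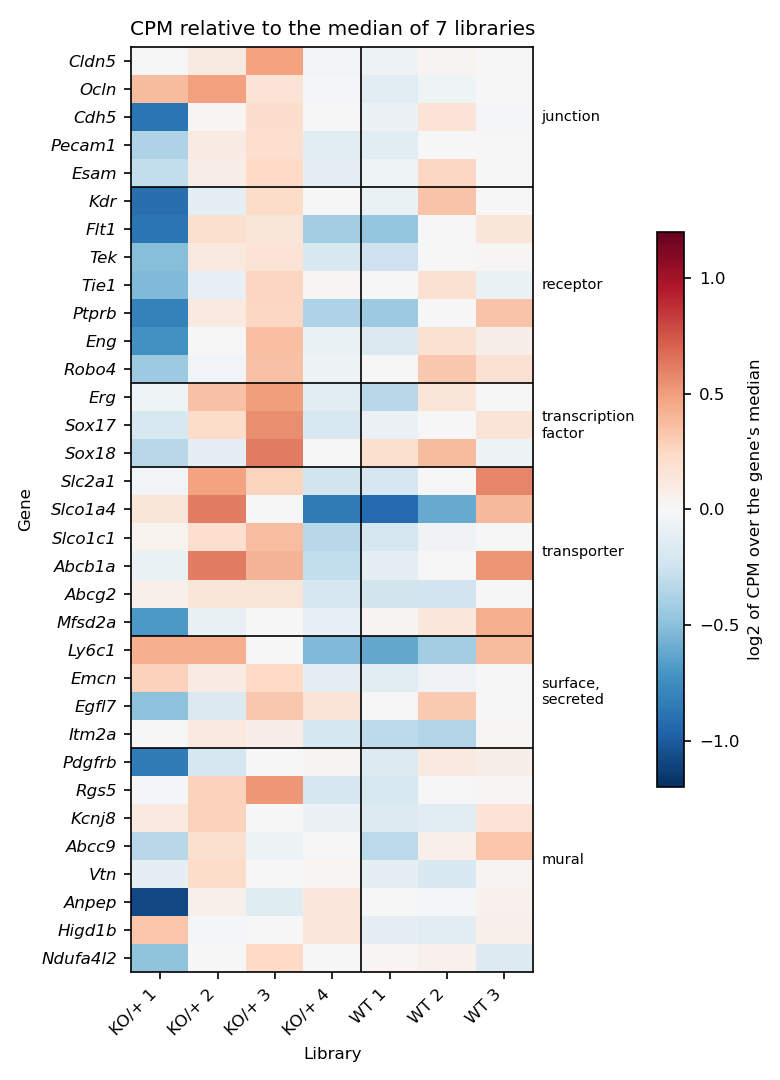
CPM of each vascular gene in each library relative to the median of that gene over the 7 libraries (log2), with L3mbtl3 KO/+ libraries left of the vertical line, WT libraries right of it, and genes in blocks by role. KO/+ replicate 1 is low for all 7 receptors, and Slco1a4 and Ly6c1 are low in KO/+ replicate 4 and WT replicates 1 and 2.

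Rgs5 led the mural genes by counts, at 160.2, 195.6, 231 and 139.9 CPM in KO/+ libraries, against 140.9, 161 and 163 CPM in WT libraries. Vtn led them per length and was at 76.8, 96.8, 83.3 and 84.9 CPM in KO/+ libraries, against 76.6, 73.3 and 85.1 CPM in WT libraries. The genotypes overlapped for both, and their log2 fold changes were 0.23 ± 0.17 and 0.13 ± 0.10 (SE), adjusted p = 0.957 each. Rgs5 was at 0.081 without KO/+ replicate 3, its highest library, and Vtn at 0.061 without KO/+ replicate 2, its highest. Pdgfrb, the receptor through which endothelial PDGF recruits pericytes, had a log2 fold change of -0.23 with 13.8 to 25.4 CPM in KO/+ and 22.1 to 26.9 CPM in WT libraries, and -0.067 without KO/+ replicate 1. Anpep, aminopeptidase N of the pericyte surface, was at 2.84 CPM in KO/+ replicate 1 and at 5.51 to 6.70 CPM in the other 6 libraries, with a log2 fold change of -0.20, and 0.0073 without that library. Higd1b and Ndufa4l2, a pair of mitochondrial protein genes used as mural markers, had log2 fold changes of 0.19 and -0.02, which were 0.10 and 0.11 without KO/+ replicate 1.

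Kcnj8 and Abcc9 lie next to each other on chromosome 6 and encode the channel and the regulatory subunit of the ATP-sensitive potassium channel of pericytes. Kcnj8, whose promoter with a SOX match 210 bases before the start is shown above, was at 7.47, 8.31, 6.86 and 6.53 CPM in KO/+ libraries, against 6.12, 6.23 and 7.71 CPM in WT libraries. Abcc9 was at 10.6, 15.3, 12.9 and 13.4 CPM in KO/+ libraries, against 10.7, 14 and 17 CPM in WT libraries. Per length Kcnj8 was the higher in every library: the ratio of Abcc9 to Kcnj8 TPM was 0.464, 0.562, 0.602 and 0.621 in KO/+ libraries, against 0.538, 0.706 and 0.722 in WT libraries. The genotypes overlapped in this ratio, with means of 0.562 ± 0.070 and 0.655 ± 0.102 (SD, n = 4 and 3).

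A second question was whether endothelial and mural genes kept step with each other. The mean log2 CPM of endothelial genes was 4.08, 4.51, 4.62 and 4.18 in KO/+ libraries, against 4.16, 4.38 and 4.48 in WT libraries. Over mural genes the mean was 3.37, 3.78, 3.75 and 3.68 in KO/+ libraries, against 3.55, 3.65 and 3.75 in WT libraries. Endothelial minus mural was 0.70 ± 0.16 in KO/+ and 0.69 ± 0.07 in WT libraries (SD, n = 4 and 3), a difference between genotypes of 0.007 on the log2 scale that is well below the spread between libraries. It was largest in KO/+ replicate 3, at 0.87, and smallest in KO/+ replicate 4, at 0.49. KO/+ replicate 1 was the lowest library for 13 of 25 endothelial and 4 of 8 mural genes, beside 16.7% of all genes, and KO/+ replicate 3 was the highest for 13 of 25 endothelial and 2 of 8 mural genes, beside 8.98% of all genes.

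The low values of KO/+ replicate 1 were concentrated in some genes. In 8 of the 33, namely Kdr, Flt1, Tie1, Eng, Cdh5, Mfsd2a, Pdgfrb and Anpep, its CPM was under 0.75 of the lowest other library, beside 2.63% of all genes; the share of genes whose highest CPM was over 2 times the lowest was 9 of 33, beside 22.3% of all genes. Cldn5, Rgs5, Itm2a, Abcg2 and Slco1c1 were not low in that library. Across the 33 genes, the log2 ratio of its CPM to the median of the gene went down with the length of the most abundant transcript, with a Spearman correlation of -0.54; across all 16813 genes the correlation was -0.31. These are correlations across genes of 1 library, which share its depth and composition and are not independent replicates. In the other 6 libraries the correlation with length lay between -0.33 and 0.27 for the vascular genes and between -0.15 and 0.16 for all genes. The GC content of the same transcripts varied with the values in other libraries as well: its correlation over the vascular genes was -0.38, -0.53, 0.25 and 0.53 in KO/+ replicates 1 to 4, against 0.67, 0.55 and -0.14 in WT replicates 1 to 3, and over all genes it lay between -0.12 and 0.17. No measure of RNA quality per library was used, and the part of transcript length and GC content in these values was not tested.

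**Figure D4:**
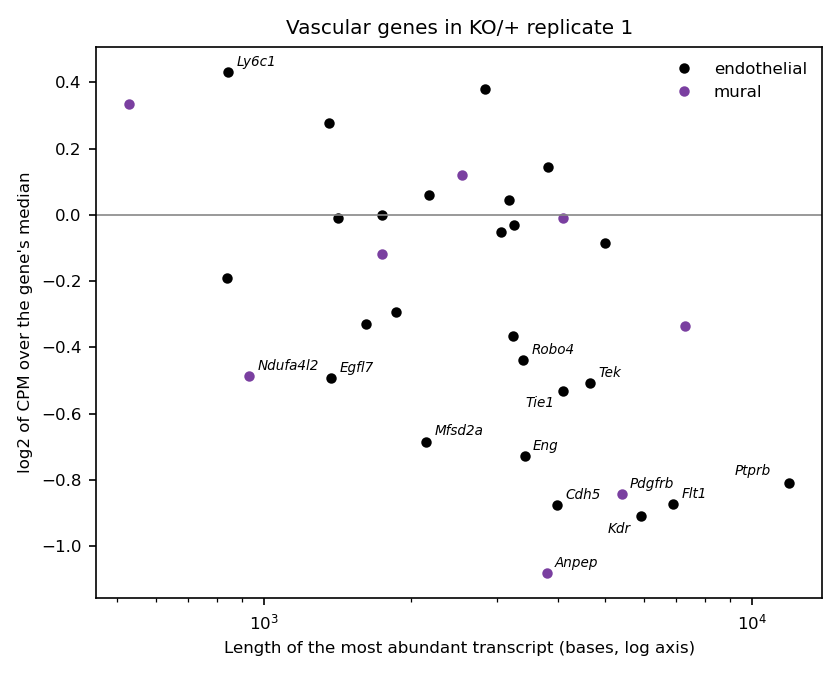
Each point is a vascular gene in L3mbtl3 KO/+ replicate 1, with the length of its most abundant transcript on the horizontal axis (bases, log axis) and its CPM relative to the median over 7 libraries on the vertical axis (log2); endothelial genes are black and mural genes purple. Kdr, Flt1 and Ptprb, which have long transcripts, lie lowest together with Cdh5, Pdgfrb and Anpep. Other genes with long transcripts do not, such as Abcc9 at -0.34 and Abcb1a at -0.08. The Spearman correlation is -0.54.

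Ligands, signals and matrix around these cells were followed in lists of further genes, and in each list 0 genes passed the adjusted p. The 15 vascular ligands and co-receptors had 6 positive and 9 negative fold changes with a median of -0.05, which was 0.060 without KO/+ replicate 1. The gene with the smallest p was Angpt2, an angiopoietin that destabilises vessels, at 6.72, 9.72, 7.77 and 5.99 CPM in KO/+ libraries, against 5.67, 6.07 and 6.03 CPM in WT libraries, a log2 fold change of 0.35, adjusted p = 0.957, and 0.21 without KO/+ replicate 2. The 15 genes of Wnt and Norrin barrier signalling were split 8 to 7 with a median of 0.00. Their smallest p belonged to Wnt7a, a Wnt ligand that induces the barrier, at 84.3, 69.2, 49.2 and 59.7 CPM in KO/+ libraries, against 58.4, 51.1 and 50.5 CPM in WT libraries. The genotypes overlapped for both genes, and the log2 fold change of Wnt7a was 0.30, and 0.16 without KO/+ replicate 1.

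Of 16 other barrier and endothelial genes, 6 were positive and 10 negative, with a median of -0.12 (0.028 without KO/+ replicate 1); the smallest p was that of Tjp1, the junction scaffold ZO-1, at 97.0 ± 9.48 CPM in KO/+ and 109 ± 10.2 CPM in WT libraries (SD, n = 4 and 3). Capillary basement membrane genes, which encode collagen IV, laminins, nidogens, perlecan and Sparc, were negative in 9 of 10, with a median of -0.22. Sparc was the positive gene, with a log2 fold change of 0.095. The mean log2 CPM of the list was lowest in KO/+ replicate 1, at 5.09, beside 5.80 to 6.04 in the other KO/+ and 5.92 to 6.18 in the WT libraries. Without that library 7 of 10 were negative, with a median of -0.048. Lamc1, the laminin gamma chain with the smallest p of that list, was at 41.9, 62.9, 73.3 and 77.8 CPM in KO/+ libraries, against 74.0, 82.5 and 79.8 CPM in WT libraries, and the genotypes overlapped; its log2 fold change was -0.30, and -0.14 without KO/+ replicate 1. Of 10 further pericyte genes, among them Zic1, which granule neurons also express, 5 were positive and 5 negative, with a median of -0.06 (0.028 without KO/+ replicate 1). Cspg4, the NG2 proteoglycan of pericytes and of oligodendrocyte precursors, had the smallest p of these, at 8.08, 10.9, 12.7 and 17.4 CPM in KO/+ libraries, against 17.4, 16.1 and 18.7 CPM in WT libraries, a log2 fold change of -0.51 ± 0.23 (SE), adjusted p = 0.957, and -0.35 without KO/+ replicate 1. KO/+ replicates 1 to 3 lay below all WT libraries and KO/+ replicate 4 within them.

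Red cell genes were followed as well, with no measure of the blood left in the tissue. The 7 listed had 7 positive fold changes with a median of 0.81, of which 4 had an unadjusted p under 0.05 (higher in KO/+, as were 1.25% of all genes) and 0 passed the adjusted p in edgeR's test. Without KO/+ replicate 1 the median was 0.63 and fewer of the 7 had an unadjusted p under 0.05. Hbb-bs, adult beta globin, was at 538, 760.4, 469.7 and 251 CPM in KO/+ libraries, against 269.9, 245 and 309.7 CPM in WT libraries. KO/+ replicate 4 lay within the WT range and the other KO/+ libraries above it. Of 12 genes of meninges and fibroblasts, which line the brain surface and the larger vessels, 8 were positive, 4 were higher at an unadjusted p under 0.05, beside 1.25% of all genes, and 2 did not overlap between genotypes, beside 3.96% of all genes. Without KO/+ replicate 1, 11 of the 12 were positive, beside 48.6% of all genes, and 6 had an unadjusted p under 0.05 in edgeR's test. These counts at an unadjusted p are not read as results about the list. Dcn, decorin, had the smallest p of this list in edgeR's test, 0.00416 unadjusted and 0.957 adjusted. It was at 46.4 ± 5.69 CPM in KO/+ and 35.1 ± 1.35 CPM in WT libraries (SD, n = 4 and 3). Microglia genes had a median of 0.12, with 7 of 10 positive and the smallest p for C1qb, at 24.8 ± 6.35 CPM in KO/+ and 20.3 ± 2.71 CPM in WT libraries. Granule neuron genes had a median of 0.26, with 8 of 8 positive and the smallest p for Cbln1, at 794 ± 112 CPM in KO/+ and 639 ± 67.8 CPM in WT libraries. The red cell and meningeal genes thus differed in level between libraries, and their part in the vascular values was not tested.

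Transcripts gave a further readout. The 33 genes have 166 annotated transcripts, of which 83 passed the filter; 0 passed the adjusted p, beside 0% of 44375 transcripts, and 3 had an unadjusted p under 0.05, beside 2.71% of all. Cldn5-201, Sox18-201 and Itm2a-201 made up all of the transcripts of their genes in every library, and Kdr-201 and Rgs5-201 at least 99.47%. Mfsd2a-201 made up 82.2% ± 2.99 in KO/+ and 82.4% ± 1.33 in WT libraries (SD, n = 4 and 3), so the genotypes did not differ in form beyond their spread. Ocln-201 made up 49.5% ± 7.73 in KO/+ and 47.5% ± 5.87 in WT libraries. Shares of Robo4-203 scattered from 15.6% to 63.5% over the KO/+ libraries and are not certain at the low counts of this gene.

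Flt1 is known to make a full-length receptor and a soluble form that binds VEGF outside the cell. The transcripts in use were Flt1-202, with 1333 codons, and the shorter-coding Flt1-203, with 688 codons. Flt1-203 made up 42.9%, 41.3%, 46.2% and 43.0% in KO/+ libraries, against 38.5%, 37.8% and 40.7% in WT libraries. Every KO/+ library was above every WT library by this share, one of 2 shares of vascular transcripts, of 79 that varied, whose genotypes did not overlap, beside 4.53% of all transcript shares. The other was that of Tie1-203, a minor form of Tie1, at 1.01% to 2.58% in KO/+ and 3.41% to 4.22% in WT libraries. For Flt1, neither transcript passed the test, with log2 fold changes of 0.03 for Flt1-203 and -0.17 for Flt1-202, adjusted p = 1.00 each.

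Kcnj8-201, with 127 codons beside the 424 of the main transcript Kcnj8-202, had the smallest p of the vascular transcripts. It made up 22.7%, 24.2%, 13.3% and 27.4% of Kcnj8 transcripts in KO/+ libraries, against 13.6%, 6.95% and 2.17% in WT libraries. KO/+ replicate 3 and WT replicate 1 were alike and the other libraries apart, with a log2 fold change of 1.81 ± 0.54 (SE), an unadjusted p of 0.0101 and an adjusted p of 1.00 in edgeR's test. Tie1-203 made up 1.65% ± 0.67 in KO/+ and 3.75% ± 0.42 in WT libraries (SD, n = 4 and 3), adjusted p = 1.00. Erg-208 was listed at 0 in KO/+ replicate 1 and WT replicates 2 and 3 and is not given a fold. How reads were assigned to forms of a gene was estimated by the authors' software, and that uncertainty is not in these p-values.

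**Figure D5:**
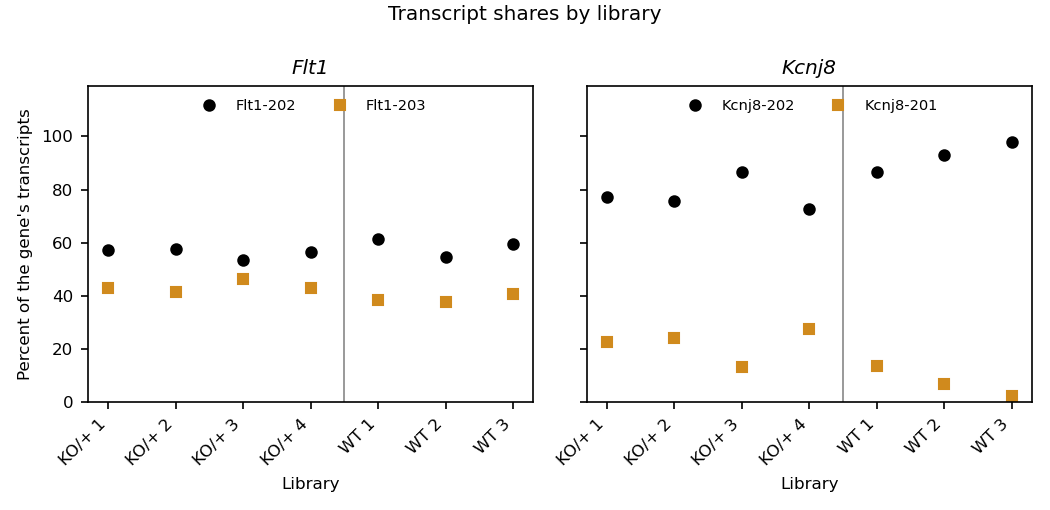
Percent of the transcripts of a gene made up by its main forms in each library, with L3mbtl3 KO/+ libraries left of the vertical line and WT libraries right of it. Flt1-203 lies at 41.3% to 46.2% in KO/+ and 37.8% to 40.7% in WT libraries, and Kcnj8-201 at 13.3% to 27.4% and 2.17% to 13.6%.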

How the data were processed

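The members and gene lists were chosen with earlier results of these data known. Per the submitters' processing notes, the authors used bcl2fastq, Trimmomatic 0.39, STAR 2.5.2a and RSEM 1.3.1 with the builds mm10 and GRCm38; the strand setting is not given in the sources used here, so a gene and its antisense partner may share reads. Per the file headers, the deposited files hold expected counts, estimated by RSEM for each gene or transcript, with TPM, scaled by transcript length, and the isoform percent, a transcript's share of its gene. Tables of the whole series were not used.

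Expected counts were rounded, filtered with filterByExpr, scaled with TMM factors (0.978 to 1.02) and compared with edgeR 4.0.16 (R 4.3.3; glmQLFit, robust, and glmQLFTest) over all 7 libraries with no covariate and Benjamini-Hochberg adjustment over all genes. The common coefficient of biological variation was 18.7%, and log2 fold changes had a median SE of 0.14. Replicate libraries differed by more than sampling noise; where they are not separate animals, p-values measure only their technical spread. Mean log2 CPM used a prior count of 2. Positions, names and transcripts came from GENCODE M21 (GRCm38), in which all gene IDs were found, and promoters from RefSeq. Scripts were tested on simulated data. Values in every library are given for the member of each role with the highest TPM and those with the smallest p, for partner genes and for members whose genotypes do not overlap; of each other list, the gene with the smallest p is named. Mki67, S100b and Ttr, and genes named for low or uneven values, were chosen after their values were seen. Alternatives were DESeq2 1.42.0, limma 3.58.1 (voom, and trend on log2 TPM with pseudocounts of 1 and 0.1), other scaling factors, other filters, an adjusted p of 0.1, a replicate block and leaving out each library. Python 3.11.15 and SciPy 1.17.1 were used.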

Additional observations from a re-analysis of the deposited data

How the results depend on the processing

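None of the 33 vascular genes passed the adjusted p in edgeR's test or in any alternative run for genes, where the smallest adjusted p of a member was 0.502, and 0 to 5 of the 33 had an unadjusted p under 0.05. Of their transcripts 0 passed in edgeR's test with no filter, with the replicate block or with each library left out. In these settings 1 to 8 transcripts had an unadjusted p under 0.05, and DESeq2 and limma were not run on transcripts. Counts at an unadjusted p changed over all genes too, with 530 in the main fit and 1029 with the replicate block. The counts of members and of their transcripts are therefore not read as results about them. The endothelial median log2 fold change lay between -0.092 and 0.10 and the mural median between -0.0069 and 0.13 over all alternatives. These moves were below the spread between replicates. Leaving out 1 of 3 or 4 libraries can hardly move a group mean by that spread, so this does not show that the medians are stable. Over all genes, 1 passed instead of 0 with the replicate number as a block (1029 at an unadjusted p under 0.05), and the count was 0 to 1 when each library was left out, 1 without KO/+ replicate 4, WT replicate 2 or WT replicate 3. No WT library has the number 4, so with the replicate block KO/+ replicate 4 adds nothing to the genotype comparison. Libraries of the same number did not deviate together (correlations of 0.086, -0.17 and -0.022). These correlations cannot show whether libraries of 1 number share a litter or a day, and the labels do not say. Of 330 fold changes of members under other settings, 9 changed sign: Pecam1 was -0.0045 with limma-voom, -0.060 and -0.066 on log2 TPM with pseudocounts of 1 and 0.1 and -0.00041 with a minimum of 1 CPM in 3 libraries; Abcb1a was -0.016 and -0.019 with the same TPM settings; Tek was 0.011 with upper-quartile factors and 0.0039 with the replicate block; and Slc2a1 was 0.11 with the block. Leaving out each library changed 32 of 231 signs, in 16 genes, 12 of them without KO/+ replicate 1. Their log2 fold changes ranged over -0.27 to 0.052 for Cdh5, -0.089 to 0.10 for Pecam1, -0.18 to 0.0084 for Esam, -0.26 to 0.079 for Flt1, -0.11 to 0.12 for Tek, -0.23 to 0.031 for Tie1, -0.33 to 0.056 for Ptprb, -0.28 to 0.072 for Eng, -0.083 to 0.20 for Sox17, -0.34 to 0.028 for Sox18, -0.18 to 0.25 for Slc2a1, -0.13 to 0.26 for Abcb1a, -0.27 to 0.0038 for Egfl7, -0.25 to 0.076 for Abcc9, -0.34 to 0.0073 for Anpep and -0.14 to 0.11 for Ndufa4l2. The other 17 members kept their sign under every alternative run. Of these, 13 moved by over 1.5 times with a library left out, over 0.020 to 0.21 for Cldn5, -0.40 to -0.058 for Kdr, -0.36 to -0.076 for Robo4, 0.11 to 0.35 for Erg, 0.084 to 0.83 for Slco1a4, 0.056 to 0.28 for Slco1c1, 0.094 to 0.65 for Ly6c1, 0.14 to 0.33 for Itm2a, -0.33 to -0.067 for Pdgfrb, 0.081 to 0.33 for Rgs5, 0.058 to 0.24 for Kcnj8, 0.061 to 0.19 for Vtn and 0.10 to 0.25 for Higd1b; the causes were not tested. Leaving out libraries for the further lists was chosen after seeing the data, and the gene named from each list kept its sign. Medians lay between 0.39 and 2.34 for choroid plexus, 0.59 and 1.04 for red cell, -0.63 and -0.052 for cell cycle, and -0.35 and -0.048 for basement membrane genes. Other medians crossed 0. They lay between -0.018 and 0.31 for microglia, -0.20 and 0.22 for fenestrated endothelium, and -0.090 and 0.053 for Wnt and Norrin genes. For ligands and co-receptors the range was -0.14 to 0.060, for other barrier genes -0.20 to 0.028, for further pericyte genes -0.22 to 0.028 and for receptors -0.28 to 0.031. Medians of the remaining lists kept their sign. No other scaling moved the median of all genes by over 0.1. With 4 and 3 libraries the SE of a member's log2 fold change was 0.096 to 0.39 (median 0.19), the highest for Slco1a4, and differences within the 95% intervals were not detectable.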

Other observations

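Vessel segments differ in their genes, and lists for these had 0 genes past the adjusted p in edgeR's test. Of 7 arterial genes, 3 had positive and 4 negative log2 fold changes (KO/+ over WT), with a median of -0.21 (-0.11 without KO/+ replicate 1); the smallest p was that of Gja4, the gap-junction protein connexin 37 of arterial endothelium, at 2.87 ± 0.857 CPM in KO/+ and 3.84 ± 0.286 CPM in WT libraries (SD, n = 4 and 3). Of 6 venous and capillary-venous genes, 1 was positive and 5 negative, with a median of -0.18 (-0.067 without KO/+ replicate 1); Tfrc, the transferrin receptor that takes up iron, was the positive one, at 185, 259, 183 and 169 CPM in KO/+ libraries, against 143, 151 and 181 CPM in WT libraries. Of 5 genes listed for fenestrated endothelium, as in the choroid plexus, 4 were tested, 2 positive and 2 negative, with a median of -0.01. Plpp1 was at 13.4 ± 0.66 CPM in KO/+ and 15.3 ± 2.54 CPM in WT libraries. Esm1 did not pass the filter, with 4 to 12 expected counts per library. The sum of the 4 genes was highest in WT replicate 3, at 332 CPM, where Ttr of the choroid plexus was at 11.7 CPM. The part of other cells in this list was not tested. Vwf stands in both the venous and the barrier list, Vegfc in both the arterial and the ligand list, and Foxf2 in both the barrier and the pericyte list.

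Smooth muscle of larger vessels was read from 7 of 8 listed genes, 2 positive and 5 negative, with a median of -0.20 (-0.081 without KO/+ replicate 1). Acta2, smooth muscle actin, was at 3.73, 6.02, 6.51 and 5.45 CPM in KO/+ libraries, against 5.65, 12.5 and 6.57 CPM in WT libraries, so WT replicate 2 alone stood above the rest. Its log2 fold change was -0.60 ± 0.30 (SE), adjusted p = 0.957 in edgeR's test, and -0.18 without WT replicate 2. Cnn1, calponin, did not pass the filter, with 3 to 14 expected counts per library.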
